A study of Mus musculus with 6 samples.

Results

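The 48 genes described here encode the machinery that copies DNA in S phase and the regulators that start it, among them the MCM2-7 helicase, the GINS complex, the replicative polymerases, PCNA and its loader, ribonucleotide reductase and the E-type cyclins. They were chosen by name and not by a cut on their measured values, though earlier results of these data were known. They made up 48 of the 49671 genes in the files. All 48 passed the filter on low counts and were among the 14494 genes tested. RNA was measured by RNA-Seq in muscle stem cells (MuSCs), the resident progenitors that rebuild muscle fibers, to ask how resolvin D1 (RvD1), a lipid mediator made from docosahexaenoic acid that acts in the resolution of inflammation, bears on their gene expression during regeneration. All 6 mice were female C57BL/6 aged 4 to 6 months, and all received 50 μL of 1.2% BaCl2, a salt that kills muscle fibers, in the tibialis anterior (TA) muscles. The 3 RvD1 mice were given 100 ng of RvD1 daily by intraperitoneal injection over 72 hours, and the 3 vehicle mice were given 0.1% ethanol. At day 3 the 2 TA muscles of each mouse were pooled, and cells positive for CXCR4 and β1-integrin and negative for Sca-1, CD45, CD11b and Ter119 were sorted by FACS. CD31 stands among the negative markers in the sample labels but not among the antibodies of the study's methods. Each library is 1 mouse and 1 pool of sorted cells, so that a smaller share of cells in S phase and less of each RNA per cell cannot be told apart.

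A cell prepares for S phase by loading the MCM2-7 ring onto origins with the help of ORC, Cdc6 and Cdt1. Cyclin-dependent and Dbf4-dependent kinases then recruit Cdc45 and GINS, and the ring becomes the moving helicase. DNA polymerase alpha-primase lays primers, polymerases delta and epsilon extend them on the PCNA clamp, Fen1 and Lig1 join the Okazaki fragments, and CAF-1, Uhrf1 and Dnmt1 restore nucleosomes and DNA methylation behind the fork. Many of these genes are transcribed under E2F factors at the G1/S boundary, and their RNA is low in quiescent MuSCs and high once injury has driven the cells to divide.

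Total expected counts ranged from 16148026 to 28149176 per library, and the smallest value of any member in any library was 191 expected counts. Of the 10 MuSC markers, none was at 0 in every library, and Pax7 lay between 4.03 and 8.50 TPM (transcript abundance, scaled to the same total in each library), Itgb1 between 444 and 524 and Myod1 between 239 and 470. One library stood apart on the genes described here. All 48 had their lowest CPM (counts scaled to library size by the TMM method, for comparing 1 gene between libraries) in RvD1 replicate 1, where 29.5% of all genes tested were lowest. The fold changes of the lists and of the genes described by library are therefore given with and without it.

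As a group, the replication genes were abundant. Mean TPM, which is scaled for transcript length and so allows genes to be compared, ran from 897 for Rrm2 to 8.95 for Gins3, with a median of 78.8 over the 48 genes against 14.9 over all genes tested. A mean of 100 TPM or more was reached by 21 of them, and 4 were under 20 TPM. Summed over the 48 genes, the level was 4481, 6030 and 6380 TPM for RvD1 (here and below in the order of replicates 1, 2 and 3) and 5622, 5697 and 5992 TPM for vehicle. The groups overlapped, since the lowest sum and both of the highest belonged to RvD1 mice.

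**Figure D1:**
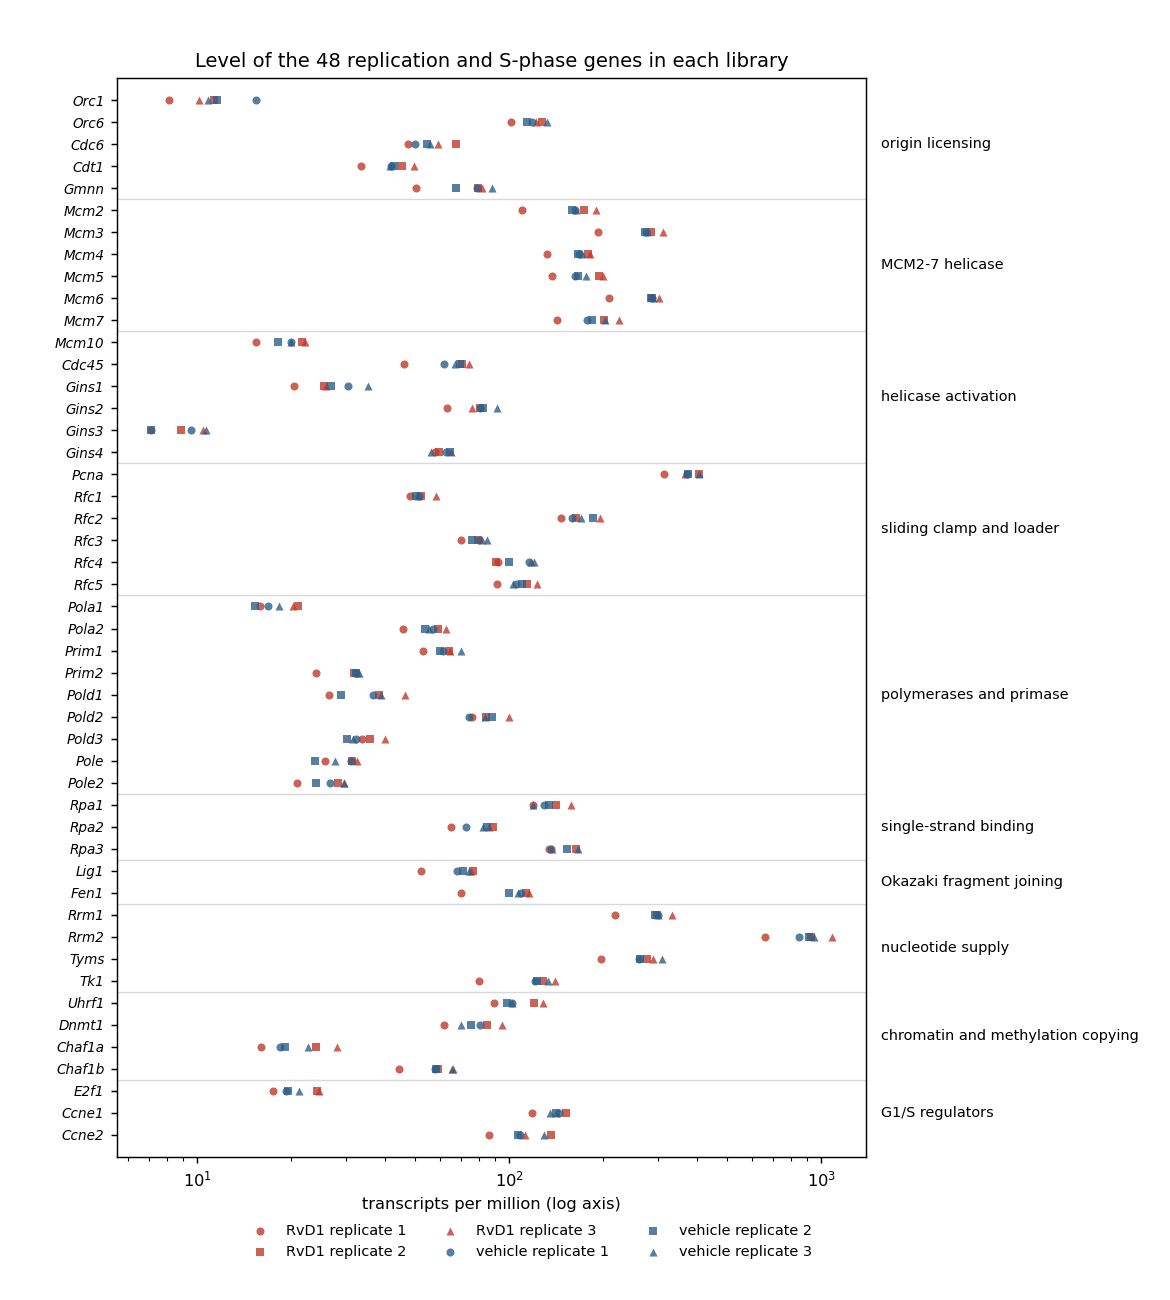
Level of each of the 48 genes in TPM on a log axis, with 1 point for each of 3 RvD1 (red) and 3 vehicle (blue) libraries and genes grouped by role. Levels span from Gins3, with a mean of 8.95 TPM, to Rrm2, with a mean of 897 TPM, and the 6 points of a gene lie close together on this scale.

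No replication gene passed the adjusted threshold between RvD1 and vehicle. With edgeR's quasi-likelihood test and Benjamini-Hochberg adjustment over all genes, 0 of 48 had an adjusted p under 0.05, as did 0.0% of all genes tested, and adjusted p ranged from 0.971 to 0.999. The log2 fold change was above 0 for 12 genes and below 0 for 36, or 75.0% against 46.5% of all genes tested, with a median of -0.12 against 0.01. Values ran from -0.45 for Gins1 to 0.13 for Pold1, with a median standard error (SE) of 0.15. The 95% confidence intervals of all 48 lay within 1 log2 unit of 0, from -0.82 to 0.60 at the extremes, and they reached a median of 0.35 to either side of the estimate, a fold of 1.28. At an unadjusted p under 0.05, 1 of 48 genes was lower and 0 were higher, where 1.64% and 1.83% of all genes tested were. The 3 RvD1 values lay wholly below the 3 vehicle values for 2 of 48 genes, Gins1 and Prim2, against 4.84% of all genes tested, and wholly above them for 0, against 4.77%.

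Without RvD1 replicate 1 the directions turned. All 48 genes were lowest in that library, so leaving it out raises their log2 fold changes whatever the treatment did. The values of that fit describe the weight of 1 library and are no test of RvD1. The median log2 fold change over the 48 genes became 0.03, against 0.00 over all genes, and 30 of 48 (62.5%, against 50.3% of those genes) were above 0. No gene passed the adjusted threshold in that fit either. An unadjusted p under 0.05 was reached by 5 genes, all higher with RvD1, where 2.04% of genes were higher and 2.29% lower at that p. The values of the 2 remaining RvD1 libraries lay above all 3 vehicle values for 13 genes, against 10.4% of all genes tested, and below them for 2, against 9.56%.

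**Figure D2:**
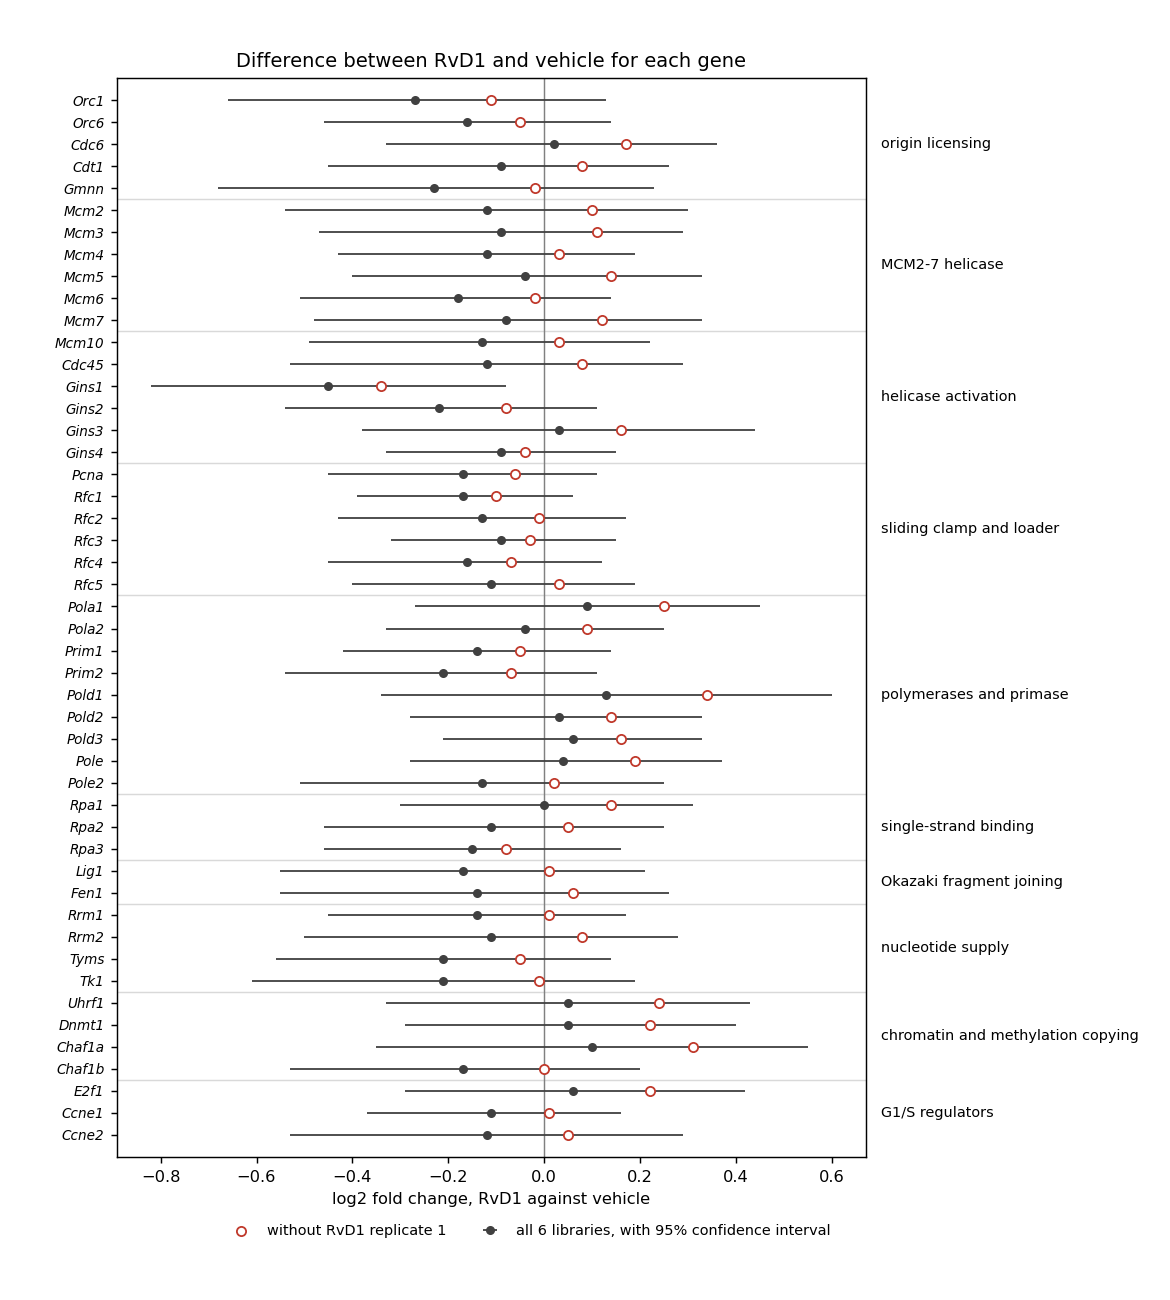
Log2 fold change of each gene, RvD1 against vehicle, as a filled point with its 95% confidence interval from all 6 libraries, and as an open point without RvD1 replicate 1. The filled points are below 0 for 36 of 48 genes with only the interval of Gins1 clear of 0, and the open points lie to the right of the filled ones and are above 0 for 30.

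Origin licensing genes came first in the order of S phase. Of Orc1, Orc6, Cdc6, Cdt1 and Gmnn, 4 had a log2 fold change below 0 and 1 (Cdc6, 0.02, and 0.17 without RvD1 replicate 1) above it, and none passed the test. Orc6, a subunit of the origin recognition complex and the most abundant of the 5 with a mean of 119 TPM, measured 68.3, 91.2 and 84.9 CPM with RvD1 and 85.4, 85.7 and 102 CPM with vehicle. Orc1, the ATPase subunit of that complex, measured 12.9, 19.8 and 17.8 CPM with RvD1 and 21.7, 20.2 and 18.8 CPM with vehicle. For both genes RvD1 replicate 1 was well below the other 5 libraries, and RvD1 replicate 2 lay among the vehicle values. The log2 fold change was -0.16 (SE 0.13) for Orc6 and -0.27 (SE 0.17, unadjusted p = 0.162, adjusted p = 0.971 by edgeR) for Orc1, and -0.05 and -0.11 without RvD1 replicate 1. Gmnn, which encodes geminin, the inhibitor that holds Cdt1 after origins have fired, was above Cdt1 in TPM in every library, by 1.49 to 2.12 times.

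The MCM2-7 helicase genes stayed close to each other. The highest of the 6 subunits was 1.65 to 1.90 times the lowest in TPM within a library, and they summed to 920, 1319 and 1407 TPM with RvD1 and to 1229, 1232 and 1278 TPM with vehicle. RvD1 replicate 1 was the lowest library and RvD1 replicates 2 and 3 were the highest. All 6 had a log2 fold change below 0, between -0.18 for Mcm6 and -0.04 for Mcm5, and 5 of 6 were above 0 without RvD1 replicate 1. Mcm6, with the highest mean (276 TPM) and the smallest p of the 6, measured 350, 513 and 515 CPM with RvD1 and 504, 527 and 534 CPM with vehicle. Its 5 other libraries fell in a narrow band above RvD1 replicate 1, and the log2 fold change of -0.18 (SE 0.14) became -0.02 (SE 0.07) without that library. In RvD1 replicate 1 the 6 genes lay 0.51 to 0.73 log2 units below the median of the other 5 libraries.

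As a description, promoters of the 48 genes were searched for letters that E2F factors are known to bind. RefSeq promoters (GRCm38.p6, from 250 bases before to 50 after a start) were held for 39 of the 48 genes, and a match to TTTCCCGC, TTTCGCGC, TTTGCCGC or TTTGGCGC on either strand, with overlapping matches counted separately, stood in 16 of the 39 (41.0%), against 704 of 27025 genes in the table (2.60%) and 479 of 10178 genes tested (4.71%). CCAAT, on either strand, stood in 24 of 39 (61.5%), against 41.1% of the table and 43.1% of the genes tested. The 250 bases upstream of 4 starts are shown 5′ to 3′ on the strand of the gene, with the E2F-type matches in capitals, for a pair of helicase subunits with more than 1 match, all of them before the start (Mcm6 and Mcm5), for a subunit of the same ring with none (Mcm2), and for the polymerase alpha subunit Pola1. They lie at chr1:128359706-128359955 (minus strand), chr8:75109259-75109508 (plus), chr6:88898781-88899030 (minus) and chrX:93632156-93632405 (minus), and hold no annotated exon of GENCODE M21.
Mcm6: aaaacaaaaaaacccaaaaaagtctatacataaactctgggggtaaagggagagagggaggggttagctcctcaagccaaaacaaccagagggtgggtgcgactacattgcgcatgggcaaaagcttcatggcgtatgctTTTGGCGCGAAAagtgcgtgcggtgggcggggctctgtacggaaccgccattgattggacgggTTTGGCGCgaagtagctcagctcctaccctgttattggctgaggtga
Mcm5: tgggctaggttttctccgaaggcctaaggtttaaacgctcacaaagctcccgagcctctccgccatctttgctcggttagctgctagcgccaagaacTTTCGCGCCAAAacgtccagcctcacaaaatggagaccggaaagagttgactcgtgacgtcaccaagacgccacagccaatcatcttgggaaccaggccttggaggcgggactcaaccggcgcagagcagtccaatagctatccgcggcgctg
Mcm2: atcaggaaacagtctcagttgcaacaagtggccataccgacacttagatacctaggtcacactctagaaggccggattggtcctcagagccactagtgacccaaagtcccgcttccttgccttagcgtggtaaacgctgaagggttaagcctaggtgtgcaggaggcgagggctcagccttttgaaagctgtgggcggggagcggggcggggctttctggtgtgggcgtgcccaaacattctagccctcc
Pola1: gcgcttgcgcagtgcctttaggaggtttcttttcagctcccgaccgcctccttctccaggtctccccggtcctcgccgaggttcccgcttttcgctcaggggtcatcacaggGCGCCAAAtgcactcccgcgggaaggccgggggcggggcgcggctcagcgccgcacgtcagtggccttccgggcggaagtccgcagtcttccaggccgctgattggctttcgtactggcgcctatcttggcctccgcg

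The matches began 110, 106 and 47 bases before the start of Mcm6, where the first pair overlap on opposite strands, 153 and 149 bases before that of Mcm5 and 138 bases before that of Pola1. Mcm2 held none in its window and lay 0.73 log2 units below the other libraries in RvD1 replicate 1, against 0.56 for Mcm6 and 0.55 for Mcm5. Over all members with a promoter, the shift of that library had a median of -0.50 for the 16 with a match and -0.44 for the 23 without. The ranges, -0.63 to -0.19 and -0.73 to -0.26, overlapped over most of their length.

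Of the genes that turn the loaded ring into a moving helicase, Gins1 stood out. Mcm10, Cdc45 and the 4 GINS genes had log2 fold changes below 0 for 5 and above 0 for 1 (Gins3, 0.03, and 0.16 without RvD1 replicate 1). Gins1, a subunit of the GINS tetramer that bridges Cdc45 and MCM2-7, lies at chr2:150905400-150931280 on the plus strand (GRCm38). It measured 11.9, 15.5 and 15.0 CPM with RvD1 and 18.5, 17.2 and 22.2 CPM with vehicle. All 3 RvD1 libraries lay below all 3 vehicle libraries, and RvD1 replicates 2 and 3 were nearly equal. The log2 fold change was -0.45 (SE 0.16), with an unadjusted p of 0.0226 and an adjusted p of 0.971 by edgeR's quasi-likelihood test, and -0.34 (unadjusted p = 0.0505 by edgeR) without RvD1 replicate 1. With 48 genes examined, 1 gene at such a p is near the share of all genes at it, given above. Gins2, the most abundant of the 6 with a mean of 78.8 TPM, measured 40.1, 55.2 and 54.2 CPM with RvD1 and 53.7, 56.2 and 64.0 CPM with vehicle, so that its groups overlapped (log2 fold change -0.22, SE 0.14, and -0.08, SE 0.11, without RvD1 replicate 1). The 4 GINS genes, whose products form a complex with 1 copy of each, were the most unequal of the complexes compared: Gins2 was 7.31 to 11.6 times Gins3 in TPM, and the order of the 4 was the same in every library.

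**Figure D3:**
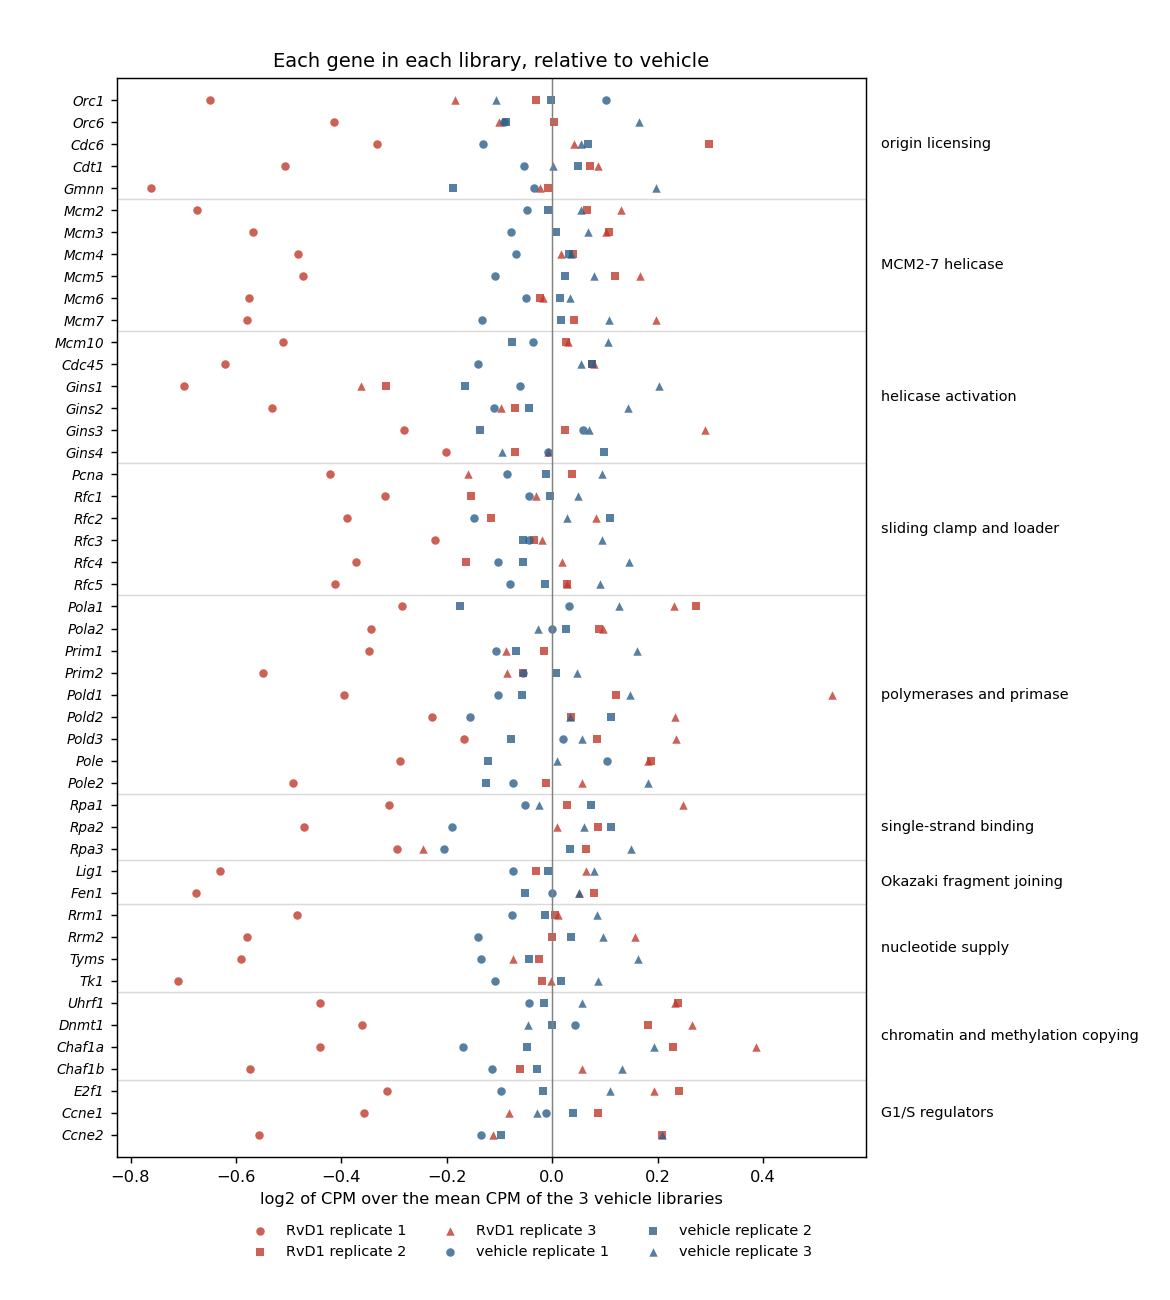
CPM of each gene in each library over the mean of the 3 vehicle libraries, on a log2 scale, with RvD1 in red and vehicle in blue and genes grouped by role. RvD1 replicate 1 (red circles) is the leftmost point for all 48 genes, and the other 5 libraries intermingle for most genes. RvD1 replicates 2 and 3 are both right of all vehicle points for 13 genes. All 3 RvD1 points are left of vehicle for Gins1 and, by a hair, for Prim2.

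The log2 fold changes of the sliding clamp and its loader were all below 0 in edgeR's fit of the counts, and none passed the test. Pcna, the ring that tethers the polymerases, measured 256, 352 and 307 CPM with RvD1 and 323, 340 and 366 CPM with vehicle, for a log2 fold change of -0.17 (SE 0.12), or -0.06 (SE 0.09) without RvD1 replicate 1. RvD1 replicate 1 was lowest, RvD1 replicate 3 lay below all vehicle libraries and RvD1 replicate 2 lay between them. Rfc1, the large subunit of the clamp loader RFC, measured 86.9, 97.4 and 106 CPM with RvD1 and 105, 108 and 112 CPM with vehicle (log2 fold change -0.17, SE 0.10, and -0.10, SE 0.09, without RvD1 replicate 1), and only RvD1 replicate 3 reached into the vehicle range. The 6 genes of the group lay between -0.17 and -0.09, and 1 was above 0 without RvD1 replicate 1. Their level in that library was 0.19 to 0.44 log2 units below the median of the other 5. On the scale of log2(TPM + 1) with all libraries, Rfc1 was at 0.05 and Rfc5 at 0.03, and the rest of the group stayed below 0. The processed copy Pcna-ps2, with 2.39 to 4.50 CPM, took few reads next to Pcna, and Pcna-ps1 was at 0 in every library.

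Of the polymerase and primase genes, 5 of 9 had a log2 fold change above 0, with a group median of 0.03, and 7 of 9 were above 0 without RvD1 replicate 1. Pold2, an accessory subunit of DNA polymerase delta and the most abundant of the 9 with a mean of 84.3 TPM, measured 50.8, 61.0 and 70.0 CPM with RvD1 and 53.4, 64.3 and 60.9 CPM with vehicle. Its lowest and highest libraries were both RvD1, and the log2 fold change was 0.03 (SE 0.14), or 0.14 (SE 0.11) without RvD1 replicate 1. Prim2, the large primase subunit, measured 27.0, 38.0 and 37.2 CPM with RvD1 and 38.0, 39.7 and 40.8 CPM with vehicle. The groups did not overlap, but RvD1 replicate 2 and vehicle replicate 1 were equal to 3 digits and the groups overlapped by TPM (up to 32.5 with RvD1 and from 32.2 with vehicle). The log2 fold change was -0.21 (SE 0.14, unadjusted p = 0.168 by edgeR) with all libraries and -0.07 (SE 0.10) without RvD1 replicate 1. Within the polymerase alpha-primase complex, Prim1 was the highest and Pola1 the lowest subunit in every library, 3.05 to 3.93 times apart in TPM.

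RPA, which coats single-stranded DNA, and the enzymes that finish the lagging strand had no gene past the test. Rpa3, the smallest RPA subunit, measured 47.2, 60.5 and 48.8 CPM with RvD1 and 50.2, 59.2 and 64.2 CPM with vehicle (log2 fold change -0.15, SE 0.14, and -0.08, SE 0.13, without RvD1 replicate 1). Fen1, the nuclease that trims the 5′ flap of each Okazaki fragment, measured 88.3, 149 and 146 CPM with RvD1 and 141, 136 and 146 CPM with vehicle, for a log2 fold change of -0.14 (SE 0.18). Lig1, the ligase that seals the nick, measured 63.6, 96.4 and 103 CPM with RvD1 and 93.5, 98.0 and 104 CPM with vehicle, for a log2 fold change of -0.17 (SE 0.17). Fen1 and Lig1 in RvD1 replicate 1 were 0.73 and 0.62 log2 units below the median of the other libraries, which lay close together, and without it their log2 fold changes were 0.06 (SE 0.08) and 0.01 (SE 0.09). Of the 3 RPA genes, Rpa1 had a log2 fold change of 0.00 (0.14 without RvD1 replicate 1) and the other 2 were below 0.

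Genes of nucleotide supply included the highest of all. Rrm2, the small subunit of ribonucleotide reductase, which makes deoxynucleotides and is limiting in S phase, measured 659, 930 and 1080 TPM with RvD1 and 849, 914 and 949 TPM with vehicle. Its lowest and highest libraries were both RvD1, as in CPM, where the log2 fold change was -0.11 (SE 0.17) and 0.08 (SE 0.09) without RvD1 replicate 1. Rrm2 was 2.84 to 3.26 times Rrm1, the large subunit, in TPM. Tyms, which makes thymidylate, measured 102, 151 and 146 CPM with RvD1 and 140, 149 and 172 CPM with vehicle (log2 fold change -0.21, SE 0.15, and -0.05, SE 0.10, without RvD1 replicate 1), with RvD1 replicates 2 and 3 inside the vehicle range. All 4 genes of the group were below 0, between -0.21 and -0.11, and 2 of 4 were above 0 without RvD1 replicate 1.

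The genes that copy chromatin and DNA methylation had 3 of 4 log2 fold changes above 0. Uhrf1, which recognizes hemimethylated DNA and brings Dnmt1 to it, was the most abundant of them with a mean of 107 TPM. It measured 158, 253 and 252 CPM with RvD1 and 208, 212 and 223 CPM with vehicle. RvD1 replicate 1 lay below all vehicle libraries and RvD1 replicates 2 and 3 above them, for a log2 fold change of 0.05 (SE 0.17) with all libraries and 0.24 (SE 0.07, unadjusted p = 0.00943 and adjusted p = 0.967 by edgeR) without RvD1 replicate 1. Chaf1b, the middle subunit of the histone chaperone CAF-1, measured 46.9, 66.9 and 72.6 CPM with RvD1 and 64.5, 68.4 and 76.5 CPM with vehicle (log2 fold change -0.17, SE 0.16, and -0.00, SE 0.10, without RvD1 replicate 1), with RvD1 replicates 2 and 3 inside the vehicle range. Its partner Chaf1a was lower in TPM in every library, by 2.35 to 3.14 times.

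Besides Uhrf1, the genes with an unadjusted p under 0.05 without RvD1 replicate 1 were Dnmt1, the maintenance methyltransferase, Chaf1a, the large CAF-1 subunit, Pold1, the catalytic subunit of polymerase delta, and Pola1, that of polymerase alpha. They are named here after their values were seen. The fit without RvD1 replicate 1 is no test of RvD1, since that library held the lowest value of each of them and of Uhrf1. Dnmt1 measured 151, 220 and 233 CPM with RvD1 and 200, 194 and 188 CPM with vehicle, and Chaf1a 51.9, 82.5 and 92.0 against 62.6, 68.1 and 80.5 CPM. Pold1 measured 32.6, 46.6 and 61.9 CPM with RvD1 and 39.9, 41.2 and 47.5 CPM with vehicle, and Pola1 43.3, 63.7 and 61.9 against 53.9, 46.7 and 57.6 CPM. RvD1 replicate 1 was below every vehicle library for all 4, and RvD1 replicates 2 and 3 were above every vehicle library except for Pold1, where replicate 2 was not. Without RvD1 replicate 1 the log2 fold changes were 0.22 (SE 0.08), 0.31 (SE 0.12), 0.34 (SE 0.14) and 0.25 (SE 0.11) in that order, and with it 0.05, 0.10, 0.13 and 0.09. The adjusted p of each was 0.967 in that fit.

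The G1/S regulators were E2f1, a transcription factor of S-phase genes, and the cyclins Ccne1 and Ccne2, which activate Cdk2. Ccne1, with a mean of 138 TPM, measured 133, 181 and 161 CPM with RvD1 and 169, 175 and 167 CPM with vehicle, so that its lowest and highest libraries were both RvD1 (log2 fold change -0.11, SE 0.12). Ccne1 was above Ccne2 in every library by 1.05 to 1.38 times in TPM. E2f1 had a log2 fold change of 0.06 and Ccne2 of -0.12, and all 3 were above 0 without RvD1 replicate 1, at 0.22 for E2f1, 0.05 for Ccne2 and 0.01 for Ccne1.

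RvD1 replicate 1 set the spread of the whole group. Over the 48 genes, its level lay below the median of the other 5 libraries by 0.19 to 0.73 log2 units, with a median ratio of 71.4%, while the median over all genes tested was 0.01 and 48.9% were below. All 48 were lowest there also with edgeR's RLE factors in place of TMM, or with library totals as the scale. By TPM 41 of 48 were, against 20.5% of all genes tested. The mean log2 CPM over the 48 genes was 6.16, 6.66 and 6.67 with RvD1 and 6.55, 6.60 and 6.69 with vehicle, or 6.50 ± 0.29 and 6.61 ± 0.08 (SD, n = 3 each). The RvD1 mean was 0.12 below vehicle with all libraries and 0.05 above it without RvD1 replicate 1. The median correlation between pairs of members was 0.84 over 6 libraries, with 94.9% of 1128 pairs above 0.5, and 0.37 over the other 5 libraries, with 41.0% above 0.5. These correlations describe genes that share libraries, depth and scaling.

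Markers of other kinds moved with RvD1 replicate 1. The 8 fibro-adipogenic markers summed to 1727 TPM there, against 739 and 1086 TPM in the other RvD1 libraries and 851 to 926 TPM in vehicle, and 6 of the 8 were highest there. Most of the sum came from the matrix genes Col3a1 (806 TPM against 401 to 528), Dcn (450 against 182 to 284) and Col1a1 (347 against 92.6 to 192). Of the surface markers, Ly6a, which encodes the Sca-1 of the sort, was at 25.4 TPM there, below the 26.3 to 39.7 TPM of vehicle, Pdgfra at 3.48 TPM was below the 3.55 TPM of RvD1 replicate 3, and Pdgfrb was at 29.4 TPM against 11.3 to 20.5 TPM. Of the 10 MuSC markers, Myod1, which marks activated and dividing MuSCs, was lowest there at 239 TPM against 325 to 470 TPM. Highest there were 5 of the 10: Pax7, Myf5, Vcam1, Itgb1 and Sdc4, at 8.50, 220, 266, 524 and 168 TPM. Cxcr4, Itga7, Cdh15 and Des were neither lowest nor highest there. The 4 erythroid markers summed to 4.70 TPM there and to between 15.6 and 47.4 TPM elsewhere. The 18 leukocyte markers summed to 45.3 to 67.9 TPM with RvD1 and 60.9 to 104 TPM with vehicle, with Ptprc between 0.080 and 1.13 TPM, and the 8 endothelial markers to 5.79 to 10.4 and 4.14 to 15.6 TPM. None of these lists had a gene at 0 in every library, and their part in the level of the replication genes was not tested.

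Other cell cycle genes followed the same libraries. Of 49 further replication and G1/S genes, 39 were lowest in RvD1 replicate 1, with a mean log2 CPM of 5.43, 5.77 and 5.76 with RvD1 and 5.67, 5.70 and 5.77 with vehicle. In edgeR's test 0 of the 49 had an adjusted or an unadjusted p under 0.05, 33 had a log2 fold change below 0, and the median was -0.05. Without RvD1 replicate 1 the direction turned, with 31 of 49 above 0 and a median of 0.07. Leaving out the library where 39 were lowest raises their log2 fold changes whatever the treatment did. That fit is therefore no test of RvD1 here either. In it, 4 genes had an unadjusted p under 0.05 by edgeR, all higher with RvD1. Of all genes, 2.04% were higher and 2.29% lower at that p. None of the 4 passed the adjusted threshold. These 4, named after their values were seen, were Msh6, a mismatch repair factor, at 0.36 (SE 0.11), the repressors E2f7 at 0.23 (SE 0.09) and E2f8 at 0.20 (SE 0.09), and Topbp1, which acts in replication initiation, at 0.21 (SE 0.07); with all libraries they were at 0.20, 0.16, 0.04 and 0.07. With all libraries, those with the smallest p were Pclaf (listed as 2810417H13Rik), a PCNA-binding factor, at -0.27 (SE 0.14) and Dut, the dUTPase that keeps uracil out of DNA, also at -0.27 (SE 0.14), and without RvD1 replicate 1 they were at -0.14 and -0.13. Of 25 mitosis genes 24 were lowest in RvD1 replicate 1, 21 had a log2 fold change below 0 with a median of -0.08, and 0 passed the adjusted threshold. Without it, 18 of 25 were above 0 and the median was 0.03.

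Ccnb2, a B-type cyclin, had the smallest p of the mitosis genes and measured 158, 173 and 165 CPM with RvD1 and 187, 189 and 190 CPM with vehicle (log2 fold change -0.19, SE 0.08, unadjusted p = 0.0443 and adjusted p = 0.971 by edgeR, and -0.16 without RvD1 replicate 1), with no overlap between the groups. Cdk1, the kinase that B-type cyclins activate, measured 148, 207 and 230 CPM with RvD1 and 217, 220 and 241 CPM with vehicle (log2 fold change -0.21, and -0.05 without RvD1 replicate 1), with RvD1 replicate 3 inside the vehicle range. Subtracting the mitosis mean from the replication mean, in log2 CPM, gave -0.56, -0.44 and -0.58 with RvD1 and -0.52, -0.49 and -0.52 with vehicle, a difference of -0.01 between groups. Replication and mitosis genes kept nearly the same distance in RvD1 replicate 1 as in the other libraries. The E2F-type letters stood in 16 of 37 promoters of the further replication genes (43.2%) and 1 of 22 of the mitosis genes (4.55%), and CCAAT in 19 of those 22 (86.4%).

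**Figure D4:**
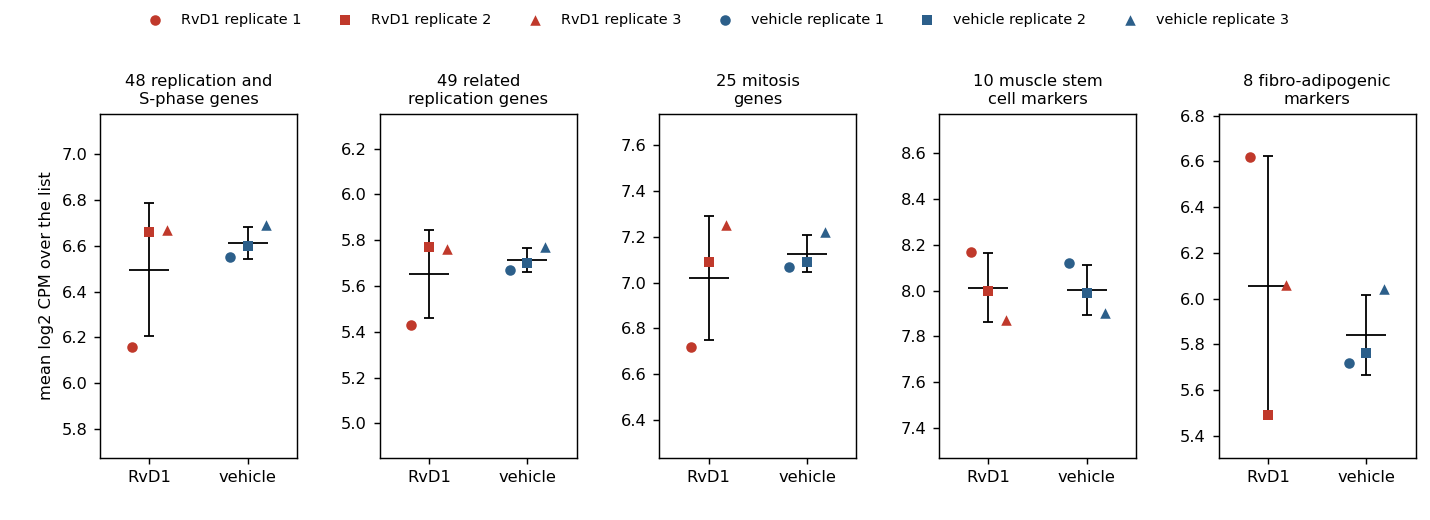
Mean log2 CPM over the genes of 5 lists in each library, RvD1 in red and vehicle in blue, with bars at the group mean ± SD (n = 3), each axis spanning the same number of log2 units. RvD1 replicate 1 is the lowest library for the 48 replication genes (6.16), the 49 related genes (5.43) and the 25 mitosis genes (6.72), and the highest for the MuSC markers (8.17) and the fibro-adipogenic markers (6.62).

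Exons of 16 of the 48 genes overlap another annotated gene, in most cases on the opposite strand. The library kit does not mark strand, so that reads in the shared stretches could not be assigned with certainty. The length of those stretches was not measured. Orc1, Orc6, Gins2, Fen1, Lig1 and Chaf1a are among the 16 genes, and Gins1, Prim2, Mcm6 and Uhrf1 are not.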

How the data were processed

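MuSCs of 3 RvD1 and 3 vehicle mice were profiled with SMART-Seq v4 cDNA, Nextera XT libraries and single-ended reads, which carry no molecular identifiers. The submitters' processing notes name STAR 2.5.0a, RSEM and mm10. The expected counts deposited by the authors are RSEM estimates per gene, not scaled for depth, and the TPM values deposited by the authors correct for transcript length and add up to the same total in each library. The deposited FPKM values were not used. Files and labels were matched by group and replicate number.

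Expected counts were rounded and tested with edgeR 4.0.16 in R 4.3.3 (TMM, filterByExpr by group, quasi-likelihood test, Benjamini-Hochberg over 14494 genes, threshold 0.05). The same test was also run on simulated counts with 200 genes changed 4-fold. That check does not bear on differences as small as those of the members. P values measure the spread between 3 mice per group. CPM are TMM-scaled, and log2 CPM have a prior count of 2. The alternatives included DESeq2 1.42.0, limma 3.58.1 with voom, and limma-voom after removal of a surrogate variable found with sva 3.50.0, as in the study; their effect is given at the end. The floor of 3 counts, equal to 0.107 to 0.186 CPM, covers counting error only. The confidence intervals of the log2 fold changes come from the edgeR fit and, like its p values, include the spread between mice. Positions and exons are from GENCODE M21 (GRCm38, the mm10 assembly), promoters from RefSeq.

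The members and gene lists were chosen with earlier results of these data known. Values per library are given for the member of each role with the highest mean TPM, that with the smallest unadjusted p, and any whose groups did not overlap or whose unadjusted p was under 0.05, and for the 2 genes of each further list with the smallest p.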

Additional observations from a re-analysis of the deposited data

How the results depend on the processing

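No member passed the adjusted threshold under any of the 15 alternatives, and the smallest adjusted p of a member was 0.317, with 1 surrogate variable removed before limma-voom. The median log2 fold change of the members was -0.118 with all libraries and ran from -0.20 to 0.03 when 1 library was left out, the ends being those without RvD1 replicates 2 and 1. With surrogate variables removed it was -0.04, and with log2(TPM + 1) also -0.04, where the median of all genes was 0.08. The number of members above 0 was 12, and ranged from 2 to 30 when 1 library was left out, with 30, 5 and 2 after leaving out RvD1 replicate 1, 2 or 3. The number whose groups did not overlap was 2, and 1 under edgeR's RLE factors. It ranged from 2 to 15 when 1 library was left out. It was 15, 7 and 4 after leaving out RvD1 replicate 1, 2 or 3, and 6 without vehicle replicate 1. Groups with fewer libraries also separated more often over all genes. Of all genes tested, 10.4% lay wholly above vehicle and 9.56% wholly below without RvD1 replicate 1, against 4.77% and 4.84% with all libraries. Shares for the other fits were not computed, so their counts are not read as a rise. The sign changed for 18 members without RvD1 replicate 1, for 10 without replicate 3 of that group and for 7 under either TPM setting.

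With the replicate block, 0 members passed and the median was -0.14. The numbers pair no mice in the labels or methods. Same-numbered libraries correlated at 0.310, -0.00071 and 0.126 in their deviations, and those of different number at -0.246 to 0.173. The block changed no call of a member. The share of all genes at an unadjusted p under 0.05 by edgeR was 6.18% with the block and 3.47% without it. The block is not read further. With 3 mice per group, the median 95% interval of a member reached 1.28-fold to either side, before adjustment over genes. This is not a detection limit, and larger differences could also be missed at the adjusted threshold. Gins1, at a log2 fold change of -0.45, had an adjusted p of 0.971 by edgeR.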
